A study of Mus musculus with 4 samples.

Results

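Chromatin accessibility at 35 genes of the cell cycle and DNA replication machinery was described in mouse fetal liver, out of 21774 protein-coding genes of the mouse RefSeq table. The genes were listed by name: 4 cyclin-dependent kinases, 8 cyclins, 4 inhibitors of these kinases, 5 pocket proteins and E2F factors, 9 genes of replication licensing and the replication fork, and 5 genes of mitosis and proliferation. The assay was ATAC-seq: a transposase inserts adapters wherever DNA is open, and the fragments between insertions are sequenced. Cells came from whole fetal livers at embryonic day 14.5, either wild-type (WT) or carrying a knockout (KO) of Hemgn, the gene of hemogen, a nuclear protein made by blood cell precursors. There were 2 libraries of each genotype, and the labels give neither the KO allele nor whether the libraries came from separate embryos or litters. The spread between replicates may therefore be technical. The labels name no sort, so the cells of the liver were measured as a mixture, in which a change in cell makeup and a change within cells cannot be told apart.

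Each library had its own list of peaks, that is, intervals where cut fragments pile up above the local background. A peak belonged to a gene when its summit lay in the gene body, or within 100 kb with that gene's boundary as the nearest. Peaks with a summit within 1 kb of either end of the gene are called boundary peaks, and all others distal. Peaks of the 4 lists that shared at least 1 bp were merged into regions. By this rule the 35 genes held 159 of 55290 regions, of which 42 were boundary and 117 distal. A region assigned to another gene as well was counted for both, which was the case for 20 of the 159. Fold enrichments of separate lists are not heights on a common scale, so each peak was given its percentile of fold within its own list, from 0 for the weakest to 100 for the strongest.

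Cells enter division when D-type cyclins bind Cdk4 or Cdk6 and phosphorylate the pocket protein RB, which releases E2F factors. Activating E2F factors then turn on cyclin E and the genes that license and copy DNA, and later the mitotic genes are turned on, many through CCAAT boxes and an element called the CHR. Red cell precursors, which make up most of the fetal liver at this age, couple their last divisions to differentiation and leave the cycle before the nucleus is expelled. Cyclin D3 is known to set the number of these last divisions, and E2f4 and E2f2 are known for roles in the same lineage.

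The lists held 34181 to 47858 peaks. In the order WT replicate 1, WT replicate 2, KO replicate 1 and KO replicate 2, which is used for every set of 4 values, they held 47858, 34181, 35426 and 43018. List length differed more within each genotype than between genotypes, and the depth behind the lists is not stated in them. Summits within 1 kb of a gene boundary made up 27.8% to 35.3% of a list, against 6.67% to 7.31% after the summits were shifted by 5, 20 or 50 kb. Of the marker genes of each cell type, 8 of 10 erythroid, 3 of 10 hepatocyte, 0 of 8 macrophage, 1 of 7 granulocyte, 1 of 6 B lymphoid, 3 of 6 megakaryocyte and 3 of 7 endothelial and stellate genes had a boundary peak in all 4 libraries. In single libraries, 9, 9, 8 and 9 erythroid, 6, 5, 3 and 5 hepatocyte, 3, 1, 0 and 3 macrophage, 4, 3, 2 and 3 granulocyte and 5, 4, 3 and 4 megakaryocyte genes had such a peak, with the lowest count of each in KO replicate 1. The counts were 1, 1, 3 and 3 for B lymphoid and 4, 4, 5 and 6 for endothelial and stellate genes, higher in both KO libraries. Over all 21774 genes they were 12521, 11753, 12048 and 12303, lowest in WT replicate 2 and overlapping between genotypes. The part of cell makeup in the results below was not tested. The boundary peak of Hemgn itself was present in all 4 libraries, at percentiles 33.0, 28.0, 35.5 and 34.3, so this peak does not check the genotype labels.

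Open boundaries were the rule for these genes in both genotypes. A boundary peak was present in all 4 libraries for 30 of the 35 genes (85.7%), against 51.1% of all protein-coding genes. The number of genes with such a peak was 31, 31, 31 and 32 in the 4 libraries. Over the 30 genes, the median percentile was 81.8, 76.6, 76.7 and 81.0. The WT mean was 79.2 ± 3.70 (SD, n = 2) and the KO mean 78.8 ± 3.09 (SD, n = 2), a KO minus WT difference of -0.382 percentile points that lies inside the spread between replicates. Over all genes with a boundary peak in every library the medians were 85.4, 80.0, 81.2 and 84.1, so the 30 genes stood slightly lower in each list. Their peaks were wider, with medians of 1339, 1220.5, 1241.5 and 1257.5 bp against 1044, 983, 995 and 1062 bp over all genes.

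**Figure D1:**
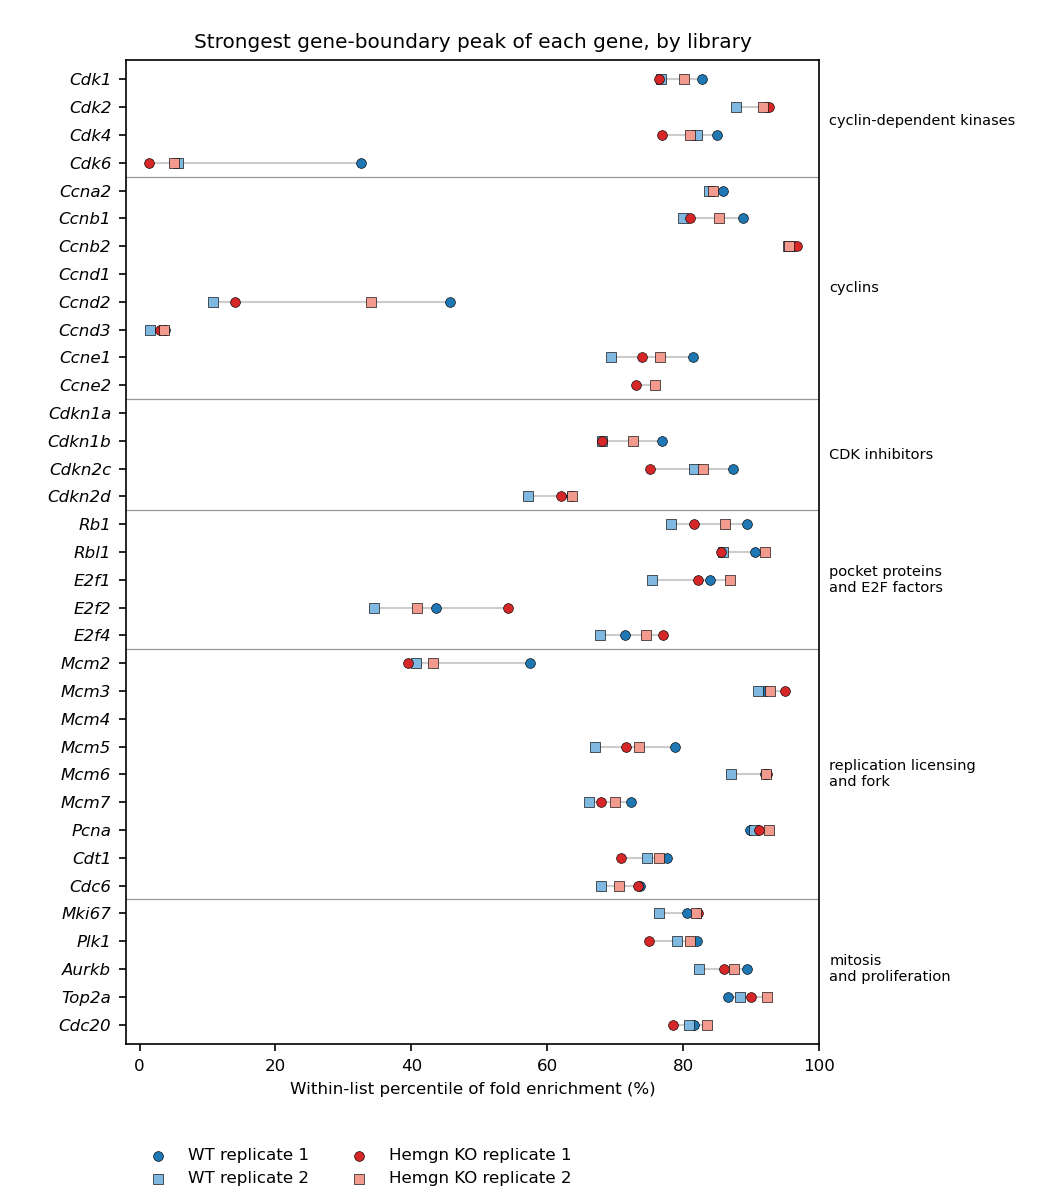
Percentile of fold within its own list (x axis, %) of the strongest boundary peak of each gene (y axis, grouped by role), with 1 point per library: blue for WT, red for KO, circles for replicate 1 and squares for replicate 2. Most genes sit to the right of 60 with the 4 points close together; Ccnd3, Cdk6, Ccnd2, E2f2 and Mcm2 sit lowest, and Ccnd1, Cdkn1a and Mcm4 have no point.

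Among the kinases, all 4 had a boundary peak in every library. Cdk2, which drives DNA synthesis with cyclins E and A, stood at percentiles 92.2, 87.8, 92.6 and 91.7. Cdk1, the kinase of mitosis, stood at 82.8, 76.7, 76.5 and 80.1. For both genes the KO values overlapped the WT values. Cdk4, a partner of the D cyclins, stood at 85.0, 82.0, 76.8 and 81.0, so both KO values lay below both WT values, and the KO minus WT difference was -4.55 points. Cdk6, the other partner of the D cyclins, had a peak of low fold at its outer boundary, chr5:3341204-3341800. It stood at percentiles 32.5, 5.61, 1.42 and 5.09 (67.3, 49.7, 43.0 and 53.0 when peaks were ranked by −log10 q). By fold both KO values were lower, but WT replicate 1 stood far above WT replicate 2. A wider peak at chr5:3342000-3344794, over the transcription start that RefSeq lists inside this boundary, stood at 78.9, 70.3, 66.5 and 73.9, and there the genotypes overlapped.

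Cyclin genes spanned nearly the whole range. Ccnb2, which encodes a mitotic B-type cyclin, had the highest boundary peak of the 35 genes by fold, at 96.3, 95.4, 96.7 and 95.6. Ccnb1, the gene of another mitotic B-type cyclin, stood at 88.8, 80.0, 81.0 and 85.3, and Ccne1, a cyclin of the entry into DNA synthesis, at 81.5, 69.4, 74.0 and 76.5. By fold, none of these 3 separated the genotypes. Ranked by −log10 q, Ccnb2 stood at 93.3, 93.0, 90.9 and 90.7, below Cdkn2c and Pcna, among others, in each library. At the other end of the ranking by fold, the outer start of Ccnd3, the D cyclin known from red cell precursors, had the lowest boundary peak, at 3.79, 1.58, 3.07 and 3.60. A second RefSeq start of Ccnd3, inside the gene, carried a peak at 64.4, 54.1, 65.3 and 63.9. Ccnd2, another D-type cyclin, stood at 45.7, 10.8, 14.0 and 34.1, where each genotype had a high and a low library.

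The 5 genes without a boundary peak in every library were 4 cyclin or inhibitor genes and Mcm4, and for 3 of them the assignment rule decided. Ccna2, the cyclin of DNA synthesis and early mitosis, had a peak at 85.8, 83.9, 80.6 and 84.4, but its summit in KO replicate 1 lay 1094 bp from the boundary, against 941 to 945 bp in the other libraries. For Ccne2, a second cyclin E gene, the peak stood at 76.6, 69.3, 73.0 and 75.9, and the WT summits lay 1072 and 1073 bp from the boundary, the KO summits 647 and 676 bp. Both peaks were thus present in every library, with summits on either side of the limit. Mcm4, a subunit of the replicative helicase, neighbours Prkdc, and a peak at 84.7, 83.8, 82.0 and 86.3 between these genes had its summit 37 to 146 bp from Mcm4 but nearer to Prkdc. When a peak counted by its interval, whichever gene was nearest, 33 of 35 genes had a boundary peak in all 4 libraries; this alternative was chosen after the data were seen.

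Ccnd1 and Cdkn1a remained without a boundary peak in any library. Ccnd1, a D-type cyclin used in many tissues, had its nearest summits 1659, 1667, 1702 and 1665 bp from its boundaries. Regions in and around the gene stood at 47.4, 30.5, 35.8 and 23.2, at 33.0, 21.2, 22 and 38.1, and at 50.03, 43.1, 52.8 and 44.0. Another, 91.1 kb away, was the strongest of this gene, at 65.2, 57.2, 61.1 and 78.5. Cdkn1a, a kinase inhibitor known as a target of the p53 pathway, had no peak at its outer start and a wide peak about 4.5 kb inside the gene, at 70.9, 47.5, 58.5 and 57.7. That peak, with summits 4529 to 4608 bp from the outer start, overlapped the window around the second RefSeq start in 4 of 4 libraries.

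The other inhibitors had boundary peaks throughout. Cdkn1b, which slows the cycle as precursors mature, stood at 76.9, 68.0, 68.1 and 72.6. Cdkn2c and Cdkn2d, which block Cdk4 and Cdk6, stood at 87.4, 81.6, 75.2 and 82.9, and at 63.5, 57.1, 62.0 and 63.6. By fold, the genotypes separated in none of the 3. Cdkn1b and Cdkn2c were lower in both KO libraries by −log10 q, and also by fold when each list was trimmed to the length of the shortest. Of the pocket protein genes, Rb1 stood at 89.4, 78.1, 81.6 and 86.2 and Rbl1 at 90.5, 85.9, 85.6 and 92.0. E2f1, an activating E2F, stood at 83.9, 75.4, 82.2 and 86.9. E2f2, also an activator, had a much lower boundary peak by fold, at 43.6, 34.5, 54.3 and 40.8 (81.0, 76.6, 81.1 and 79.0 by −log10 q). E2f4, the E2F that mostly works with pocket proteins as a repressor, stood at 71.4, 67.7, 77 and 74.5. By fold in the full lists, only E2f4 of these 5 genes had both KO values above both WT values, by a mean of 6.23 points.

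Licensing and fork genes held several of the highest values. Mcm3 stood at 92.1, 91.0, 95.1 and 92.8, Mcm6 at 92.0, 87.1, 92.4 and 92.2, and Pcna, the sliding clamp of the replication fork, at 89.8, 90.5, 91.2 and 92.7. In these 3 genes both KO values were above both WT values, by means of 2.37, 2.77 and 1.77 points. The remaining helicase genes were lower and did not separate the genotypes by fold in the full lists. Mcm5 averaged 72.7 and Mcm7 69.1 over the 4 libraries, and Mcm2 stood at 57.5, 40.7, 39.4 and 43.2. The loading factors Cdt1 and Cdc6, which place the helicase on DNA, averaged 74.9 and 71.4.

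All 5 genes of mitosis and proliferation had a boundary peak in every library. Mki67, whose protein coats mitotic chromosomes and is used as a marker of cycling cells, stood at 80.6, 76.5, 82.1 and 82.0. Top2a, which untangles sister DNA, stood at 86.6, 88.4, 90.0 and 92.3. Both genes had the KO values above the WT values, by means of 3.50 and 3.69 points. Ranked by the −log10 q of the same peaks, Top2a had a KO minus WT difference of -0.951 and its libraries overlapped. Plk1 and Aurkb, kinases of mitosis, and Cdc20, an activator of the complex that ends it, averaged 79.3, 86.3 and 81.1, and their libraries overlapped.

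Of the 30 genes with a boundary peak in all 4 libraries, then, 6 were higher in both KO libraries (20%, against 12.6% of all such genes) and 2 were lower in both (6.67%, against 11.9%). The 6 were E2f4, Top2a, Mki67, Mcm6, Mcm3 and Pcna, and the 2 were Cdk6 and Cdk4. In the other 22 the genotypes overlapped. Two-sided exact permutation tests of 2 libraries against 2 have 6 relabelings and cannot give a p below 0.33, so no such test was run on single genes or regions. Ranked by −log10 q, 2 genes were higher (E2f1 and Mki67; 6.67%, against 8.18% of all genes) and 3 lower (Ccnb2, Cdkn1b and Cdkn2c; 10%, against 8.53%), so Mki67 alone was separate under both measures. With lists of equal length, 7 of 28 genes were higher (25.0%, against 23.0% of all genes) and 5 lower (17.9%, against 16.1%). The 7 were Cdk2, E2f1, E2f4, Mcm6, Pcna, Mki67 and Top2a, and the 5 were Cdk1, Cdk4, Cdkn1b, Cdkn2c and Mcm2.

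The boundary sequences of 6 genes are printed because the results by fold above turn on them. Ccnb2 has the highest peak by fold, and the outer start of Ccnd3 has the lowest. Also by fold, Pcna, Mcm6 and Top2a are among those higher in both KO libraries, and Cdk4 is lower in both. Each runs 5′ to 3′ on the gene's strand from 250 bases before to 50 after a RefSeq start (build GRCm38.p6), with motif matches in capitals. The motifs, searched on both strands, were E2F (TTCCCGC or TTGGCGC or TTCGCGC or TTGCCGC), the CHR (TTTGAA), the CCAAT box by its own letters, and the GATA motif (AGATAA or TGATAA). Matches of the same motif may overlap, as the E2F matches of Mcm6 do.
Ccnb2 (chr9:70421505-70421804, minus strand): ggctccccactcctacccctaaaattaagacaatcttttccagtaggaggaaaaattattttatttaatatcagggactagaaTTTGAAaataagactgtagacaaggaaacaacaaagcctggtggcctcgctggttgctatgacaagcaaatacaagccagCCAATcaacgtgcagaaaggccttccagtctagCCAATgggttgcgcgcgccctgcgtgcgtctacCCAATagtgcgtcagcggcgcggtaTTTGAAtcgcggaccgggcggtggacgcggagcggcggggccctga
Pcna (chr2:132253131-132253430, minus strand): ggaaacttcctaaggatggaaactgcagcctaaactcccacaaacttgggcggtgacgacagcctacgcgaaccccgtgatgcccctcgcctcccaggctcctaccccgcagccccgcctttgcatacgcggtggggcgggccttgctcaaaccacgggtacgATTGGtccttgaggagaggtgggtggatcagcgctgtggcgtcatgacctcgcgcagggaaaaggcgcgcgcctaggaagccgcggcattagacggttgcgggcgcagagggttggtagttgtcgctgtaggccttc
Mcm6 (chr1:128359656-128359955, minus strand): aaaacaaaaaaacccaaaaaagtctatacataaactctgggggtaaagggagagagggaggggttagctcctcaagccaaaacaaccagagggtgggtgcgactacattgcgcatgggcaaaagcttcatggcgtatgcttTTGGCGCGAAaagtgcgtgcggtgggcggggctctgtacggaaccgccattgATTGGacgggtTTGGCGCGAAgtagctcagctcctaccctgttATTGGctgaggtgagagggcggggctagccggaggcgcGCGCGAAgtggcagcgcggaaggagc
Top2a (chr11:99024140-99024439, minus strand): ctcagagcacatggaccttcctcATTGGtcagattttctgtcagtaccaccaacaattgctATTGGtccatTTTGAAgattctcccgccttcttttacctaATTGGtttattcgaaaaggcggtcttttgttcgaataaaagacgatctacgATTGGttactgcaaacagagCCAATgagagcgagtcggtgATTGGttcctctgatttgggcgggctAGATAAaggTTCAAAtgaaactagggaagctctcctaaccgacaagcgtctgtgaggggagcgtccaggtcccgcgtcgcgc
Cdk4 (chr10:127063285-127063584, plus strand): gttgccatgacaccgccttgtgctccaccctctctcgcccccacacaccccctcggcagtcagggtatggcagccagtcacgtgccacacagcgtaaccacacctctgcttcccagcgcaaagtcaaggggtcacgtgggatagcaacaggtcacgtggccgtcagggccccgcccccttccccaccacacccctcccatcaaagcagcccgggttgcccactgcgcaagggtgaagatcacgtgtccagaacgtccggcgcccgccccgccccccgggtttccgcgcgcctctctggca
Ccnd3 (chr17:47504801-47505100, plus strand): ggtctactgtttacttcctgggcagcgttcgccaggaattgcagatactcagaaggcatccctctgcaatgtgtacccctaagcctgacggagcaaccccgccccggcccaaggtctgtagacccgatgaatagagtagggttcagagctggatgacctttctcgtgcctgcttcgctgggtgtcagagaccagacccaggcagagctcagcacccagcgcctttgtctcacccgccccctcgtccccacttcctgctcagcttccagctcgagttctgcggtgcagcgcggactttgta

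The high promoters differed in which motifs they held. Ccnb2 had 2 CHR and 3 CCAAT matches and no E2F match, and Top2a had 2 CHR, 6 CCAAT and 1 GATA match. Mcm6 had 5 E2F and 2 CCAAT matches, whereas Pcna had 1 CCAAT match only. Neither the Cdk4 window nor the outer Ccnd3 window held any of these letters. A match is a run of letters and not a shown binding site.

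Over the 32 promoters that RefSeq lists for 27 of the genes, E2F motifs stood in 14 (43.8%), against 12.1% of 21263 promoters of all genes and 18.2% of the 12056 with a peak in all 4 libraries. CCAAT boxes stood in 21 (65.6%, against 38.2% and 37.7%). The CHR stood in 8 (25%, against 15.99% and 10.3%), and those were promoters of Ccnb2, Cdc20, Cdk1, Mki67, Plk1, Top2a, Mcm2 and the second start of E2f2. GATA motifs, the binding letters of the main red cell factor, stood only in Top2a (3.13%, against 15.9% and 8.44%). A KLF motif (CCNCNCCC), not set in capitals above, stood in 23 (71.9%, against 56.6% and 72.2%). The median GC content was 61.7%, against 56.3% for all promoters and 62.3% for those with a peak. Of the 29 promoters of these genes with a peak in all 4 libraries, 48.3% held E2F, 69.0% CCAAT, 27.6% CHR, 3.45% GATA and 72.4% KLF motifs. In 78 promoters of 63 further genes of the same processes, described below, these shares were 35.9%, 59.0%, 37.2%, 6.41% and 66.7%.

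Peak summits lay close to these starts and at similar places in each library. Of the 32 starts, 29 had a peak summit within 1 kb in all 4 libraries, and the 3 without were both starts of Cdkn1a and 1 of Cdkn2c. The median summit was 29.5 bp downstream of the start, with 17 of 29 downstream. The summits of a start spread over a median of 61 bp between libraries, and in 13 of 29 over at most 50 bp. Cdk2 and Rbl1 had the same summit base in all 4 libraries, 31 and 10 bp downstream of the start, and Pcna had the widest spread, 267 bp, because of KO replicate 1 at 291 bp.

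**Figure D2:**
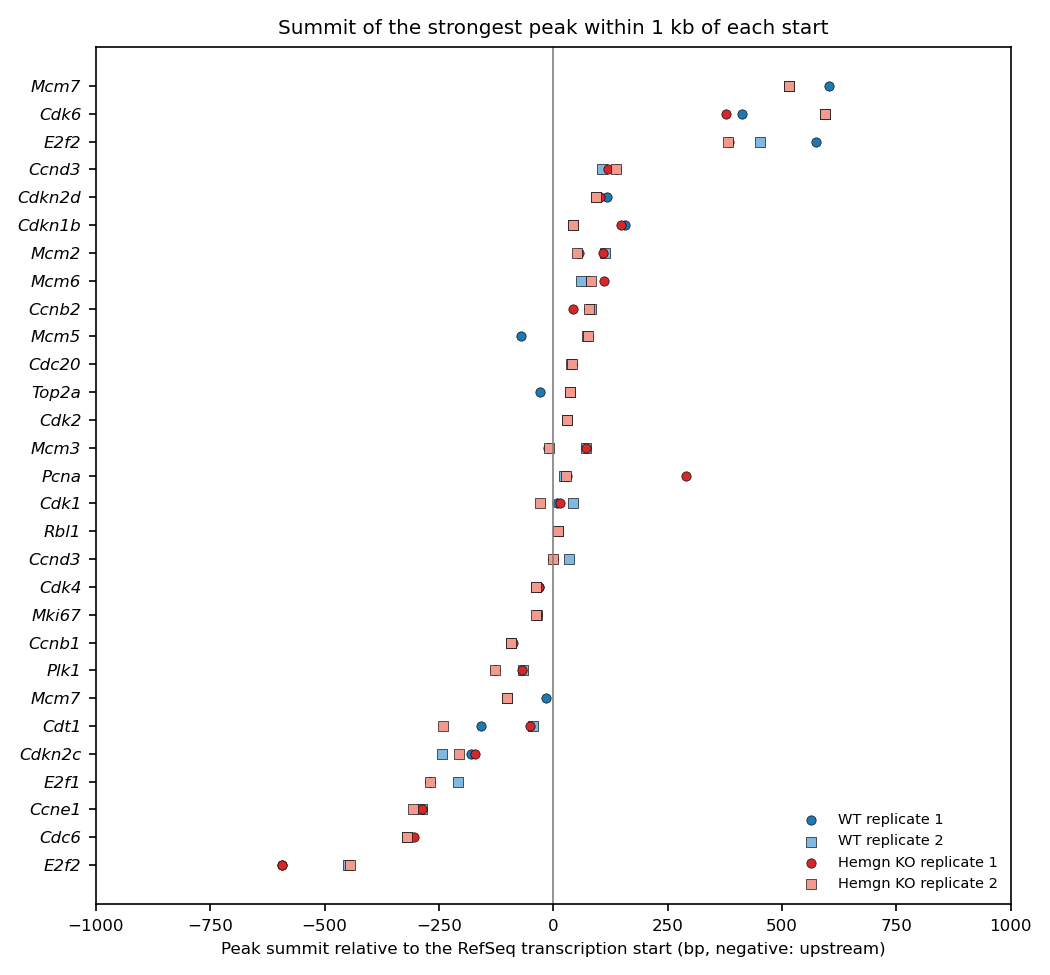
Position of the summit of the strongest peak within 1 kb of each of 29 RefSeq starts (x axis, bp, negative values upstream), with 1 row per start and 1 point per library (blue WT, red KO). The 4 points of a row spread over a median of 61 bp. The row medians run from -521 to 516 bp, with a median of 29.5 bp and with starts of E2f2, Mcm7 and Cdk6 farthest out.

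Away from the boundaries, the genes differed widely in how many regions they held. The median was 3 regions per gene, of which 2 were distal, against 2 and 1 for all genes, while the median gene length was 10.5 kb against 17.2 kb. Cdk6 held 17 distal regions, Ccnd3 15, Mki67 13, Ccnd1 9, and E2f2 and Mcm5 7 each. Genes such as Cdk2, Cdk4, Ccnb2, Cdkn2d, Mcm7, Pcna, Plk1 and Cdc20 had their boundary region and no other. The 4 libraries held 98, 67, 72 and 77 distal peaks of the 35 genes, a KO minus WT difference of -8.00 in the means. The WT libraries alone were 31 peaks apart, and the counts were lowest in the shortest list and highest in the longest.

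Regions found in all 4 libraries made up 94 of the 159 (59.1%, against 50.2% of all assigned regions). Among boundary regions the share was 34 of 42 (81.0%, against 82.0%), and among distal regions 60 of 117 (51.3%, against 38.9%). Of the 50 regions found in a single library, 30 came from WT replicate 1, which has the longest list, 4 from WT replicate 2, 5 from KO replicate 1 and 11 from KO replicate 2.

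**Figure D3:**
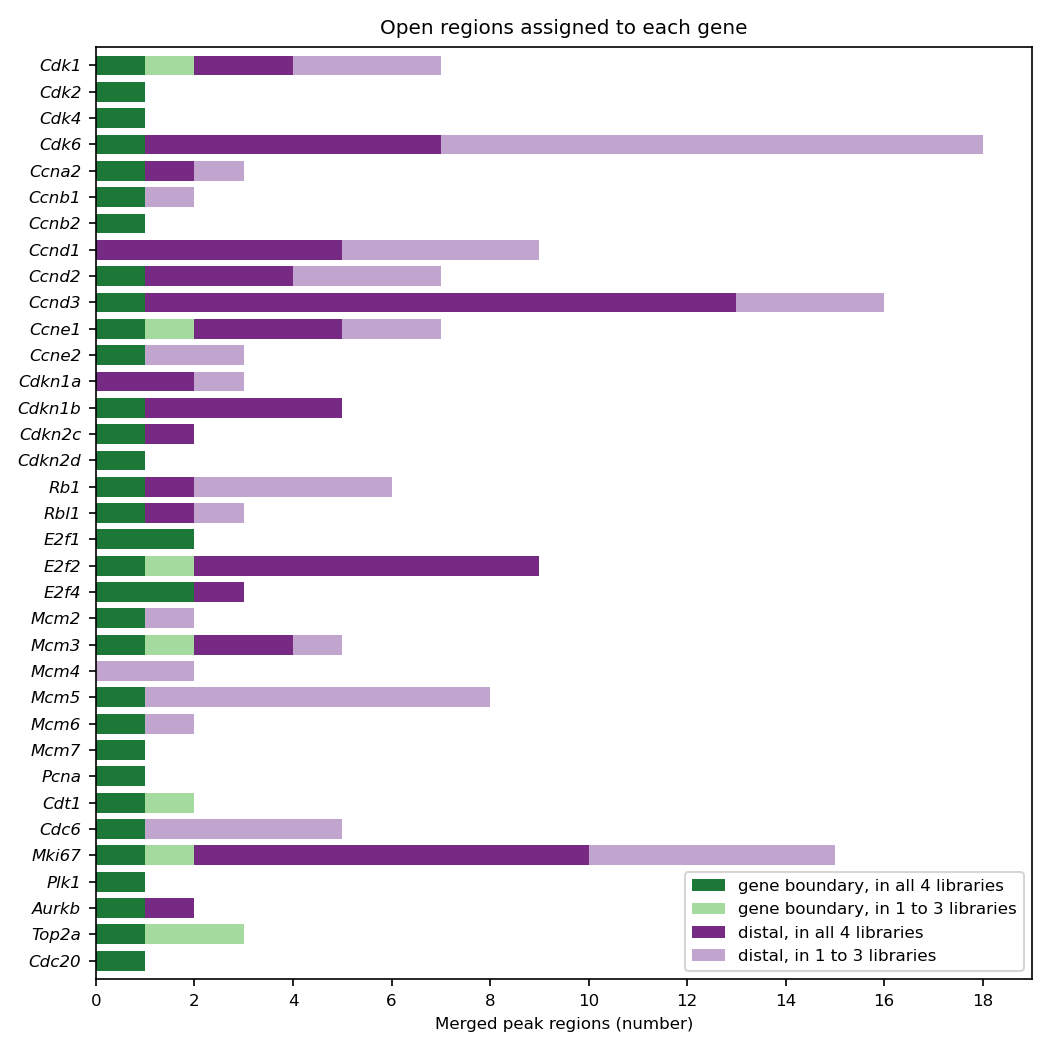
Number of merged regions assigned to each gene (x axis), with boundary regions in green and distal regions in purple; dark colours mark regions found in all 4 libraries and light colours those found in 1 to 3. Cdk6, Ccnd3 and Mki67 carry the longest bars; 12 of 15 distal regions of Ccnd3 are dark against 6 of 17 of Cdk6 and 0 of 7 of Mcm5.

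The genes rich in distal regions were not alike. Ccnd3 held 12 of its 15 distal regions in all 4 libraries, all inside its 94.6 kb body. The strongest, at chr17:47511007-47511993, about 6.3 kb from the outer start, stood at 87.9, 86.5, 81.3 and 83.1, with both KO values below both WT values. Another at chr17:47535449-47536553 stood at 81.5, 78.4, 77.1 and 81.2, with the genotypes overlapping. At chr17:47578412-47579157 the values were 88.9, 71.0, 46.5 and 83.5, so KO replicate 1 stood apart from the other 3 libraries. Regions in the far part of the gene, this one and the second start included, were also assigned to Bysl. By fold, the locus thus had intragenic regions near the top of the lists while the outer start was near the bottom. Ranked by −log10 q, the outer start stood in the middle of the lists, at 53.1, 37.7, 48.0 and 51.1.

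Mki67 and E2f2 also carried distal regions that recurred. Mki67 held 8 distal regions in all 4 libraries, all outside the gene, and its strongest, at chr7:135735481-135736769, about 19.4 kb from the gene, stood at 95.5, 86.3, 90.2 and 90.0, above its own boundary peak in each library. For E2f2 all 7 distal regions were in all 4 libraries, with the strongest at chr4:136163502-136164123, at 79.6, 71.9, 67.4 and 76.2. Neither of these regions separated the genotypes. A distal region of Ccne1, 36.6 kb away, stood at 96.2, 92.9, 95.5 and 95.8, which is above the boundary peak of that gene. By contrast, each distal region of Mcm5 was seen in 1 library only.

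**Figure D4:**
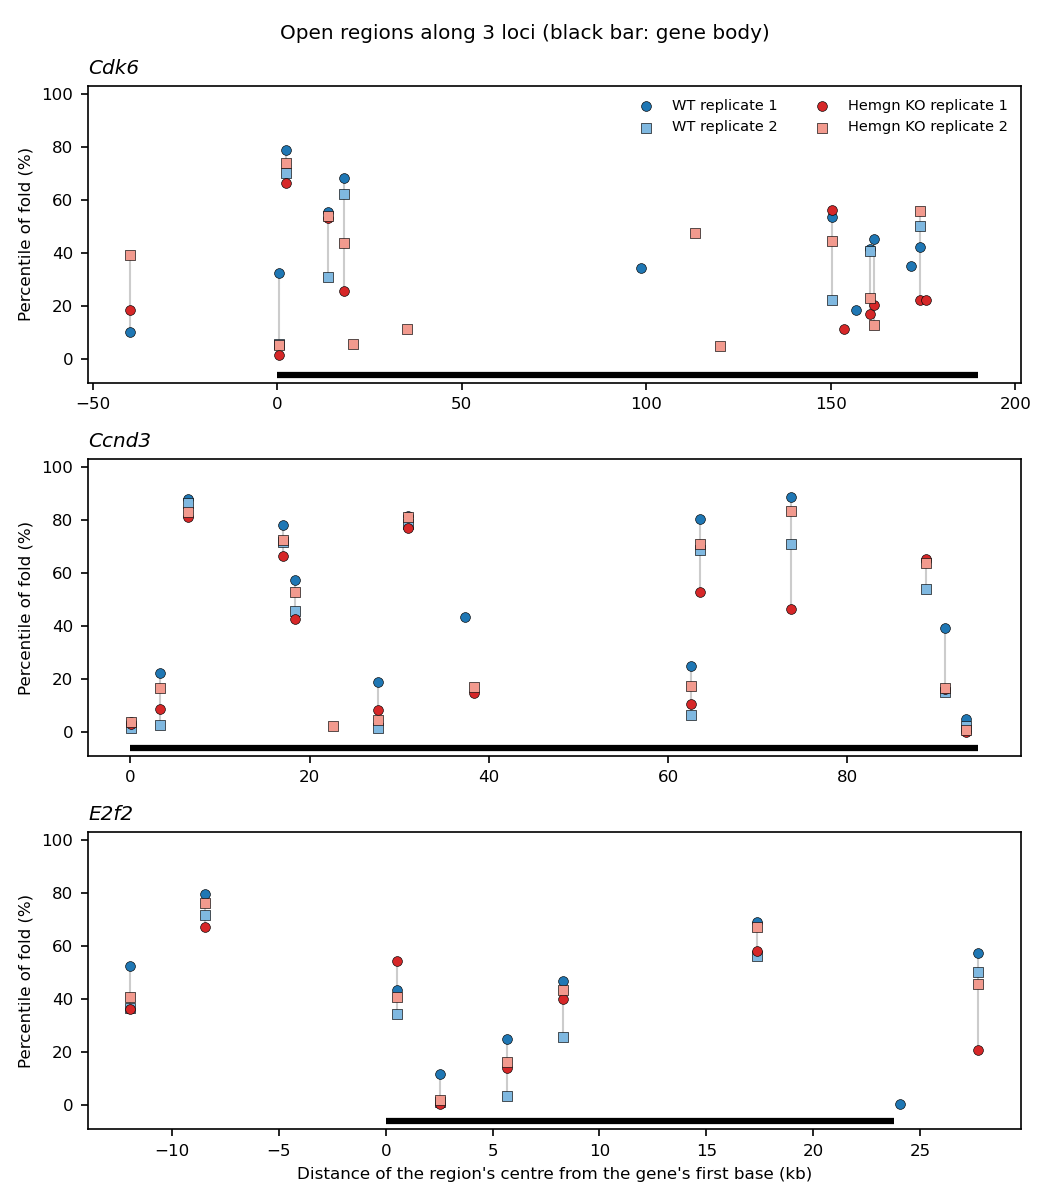
Percentile of fold within its own list (y axis, %) of every region along Cdk6, Ccnd3 and E2f2, against the distance of the region's centre from the first base of the gene (x axis, kb); points are libraries (blue WT, red KO), grey lines join them, and the black bar is the gene body. In Cdk6 the region 18.1 kb from the first base has both WT points above 60 and both KO points below 45, and in Ccnd3 several regions inside the gene exceed 80 in WT replicate 1.

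Regions found in 1 genotype only were few and weak. There were 3 WT-only regions, with a peak in both WT and no KO library, and 2 KO-only regions, of 159; over all assigned regions the shares were 2.19% and 1.37%. Top2a had 2 of the WT-only regions, both just beyond the end of the gene that lies away from its start: chr11:98991844-98992263 at 5.63 and 6.34 in the WT libraries, and chr11:98992469-98992870 at 11.8 and 2.70. Cdc6 had the third, at chr11:98922316-98923012 inside the gene, at 3.85 and 1.12. It also had a KO-only region, chr11:98918102-98918543, at 2.81 and 12.6 in the KO libraries. The other KO-only region lay inside Ccnd3, at chr17:47543116-47543721, at 14.6 and 17.1, and a WT peak lay 397 bp from it. The highest percentile of any of the 5 was 17.1. None of the 5 was called when each list was trimmed to the length of the shortest by fold, and only the KO-only region of Cdc6 was called when the lists were trimmed by −log10 q.

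Regions present in all 4 libraries mostly kept their place in the lists. Of the 94, 8 had both KO percentiles above both WT percentiles (8.51%, against 9.92% of all such regions) and 10 had both below (10.6%, against 13.7%). Both shares lie near those of all regions. The median KO minus WT difference was -1.10 points, against -0.577 over all regions. In 77 of 94 regions the genotype means differed by under 10 points, and in 4 by over 20.

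The largest difference lay at Cdk6. At chr5:3358816-3359389, inside the gene and 17.9 kb from its boundary, the WT percentiles, 68.3 and 62.3, lay above the KO percentiles, 25.5 and 43.8. The means were 65.3 ± 4.26 (SD, n = 2) and 34.6 ± 12.98 (SD, n = 2), a difference of -30.7 points. It was -23.0 by −log10 q and -33.0 with lists of equal length, with the genotypes separate each time. A second intragenic region of Cdk6, at chr5:3501270-3502002, stood at 41.6, 40.7, 16.8 and 22.8, a difference of -21.4, and was likewise separate under both alternatives. With the outer boundary peak, 3 of the 7 Cdk6 regions found in all 4 libraries were lower in both KO libraries, and the other 4 overlapped. Over all regions found in all 4 libraries, 13.7% were lower in both. At the boundary peak the genotypes overlapped by −log10 q, and with lists of equal length neither KO list held a boundary peak of Cdk6.

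**Figure D5:**
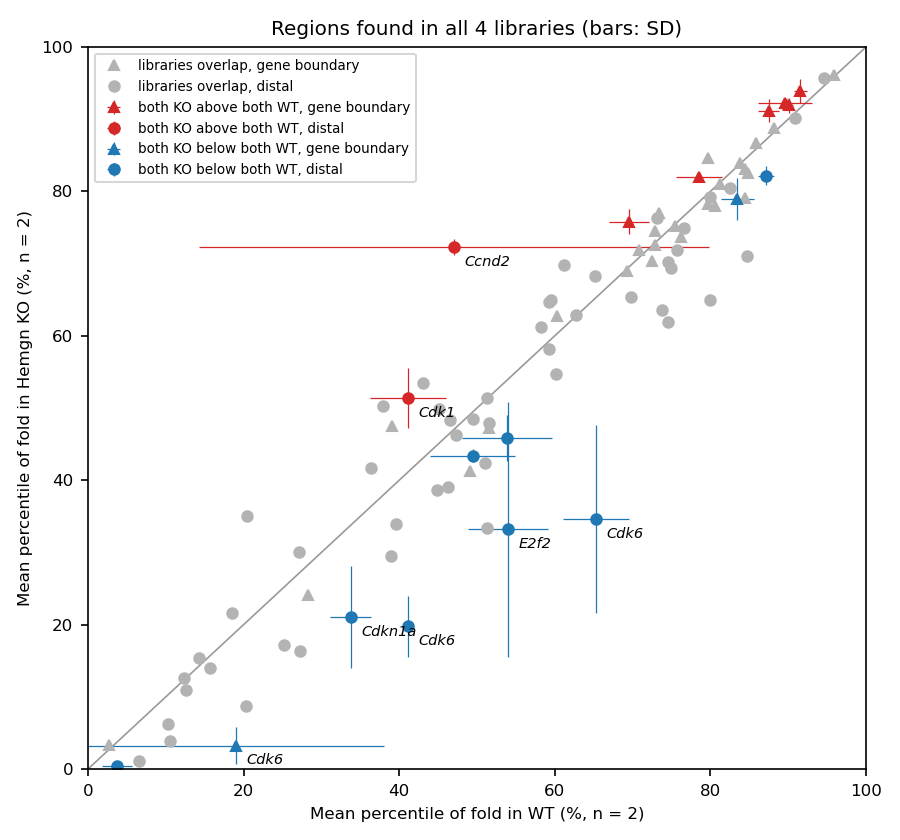
Mean percentile of fold in KO (y axis, %) against WT (x axis, %) for the 94 regions found in all 4 libraries, with triangles for boundary and circles for distal regions; red and blue mark regions where both KO values lie above or below both WT values, with bars for the SD of 2 libraries, and the 7 with the largest differences carry gene names. Most regions lie near the diagonal; 2 Cdk6 regions and 1 of E2f2 lie over 20 points below it and 1 of Ccnd2 over 20 above.

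The other separate regions were smaller in difference or rested on a single library. A region of E2f2 at chr4:136199692-136200306, 4.0 kb outside the gene, stood at 57.6, 50.3, 20.7 and 45.7, so most of its difference of -20.8 came from KO replicate 1. The genotypes were separate there under both alternatives. A region 93.8 kb from Ccnd2, at chr6:127245813-127246430, stood at 70.2, 23.9, 71.5 and 73.1. Its difference of 25.3 came from WT replicate 2, since WT replicate 1 was within 3 points of the KO libraries. By −log10 q the genotypes overlapped, and with lists of equal length they were separate. A region 11.9 kb from Cdkn1a, at chr17:29078603-29079374, stood at 35.6, 31.9, 16.1 and 26.1. It was separate by −log10 q and overlapped with lists of equal length. At 45.8 kb from Cdk1, chr10:69398433-69399666 stood at 44.6, 37.7, 48.4 and 54.4, higher in both KO libraries by a mean of 10.3 points and separate under both alternatives. The last of the 10 largest were distal regions of Mki67 (chr7:135809492-135810326, at 58.0, 49.8, 43.6 and 48.1) and Cdkn1b (chr6:134947404-134947856, at 53.3, 45.6, 44.1 and 42.8), and the boundary of E2f4, given above. Those of Mki67 and Cdkn1b overlapped under both alternatives. That of E2f4 overlapped by −log10 q and was separate with lists of equal length.

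The counts of separate regions depended on how peaks were ranked. By −log10 q, 5 of the 94 regions were higher in both KO libraries (5.32%, against 7.04% of all regions) and 11 lower (11.7%, against 8.50%). With lists of equal length 19 of 78 were higher (24.4%, against 18.99% of all regions) and 16 lower (20.5%, against 20.1%). Leaving out WT replicate 1 gave 52 higher regions and leaving out WT replicate 2 gave 69 lower regions. With a single WT library left, separation is easier to reach. No share over all regions is given for these settings, so the counts are not a result about these genes.

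A further 81 genes of the same processes, not among the 35, had a similar frequency of open boundaries. In 72 of 81 a boundary peak was present in all 4 libraries (88.9%), and the median percentiles over those 72 were 91.2, 88.0, 89.4 and 90.3, above those of the 35 genes in each library. Of the 72, 13 were higher in both KO libraries by fold (18.1%, against 12.6% of all genes) and 7 lower (9.72%, against 11.9%). By −log10 q the lean was the other way, with 3 higher (4.17%, against 8.18%) and 10 lower (13.9%, against 8.53%). With lists of equal length, 14 were higher (19.4%, against 23.0%) and 10 lower (13.9%, against 16.1%). No boundary peak was found in any library for Orc1 and Orc4 of the origin recognition complex, Rfc1 of the clamp loader, Rpa3 of the complex that binds single-stranded DNA, the checkpoint kinase Chek2, Ccna1, Foxm1, a factor of mitotic genes, and Skp2 of a ubiquitin ligase, and Cks1b had a boundary peak in 3 of 4. By interval, 76 of 81 had it in all 4, and Orc1, Orc4, Rfc1, Ccna1 and Skp2 still had none. Of their 251 regions, 4 were WT-only (Incenp, Kif11, Smc4 and E2f7) and 4 KO-only (Rfc1, Rpa2, Ttk and Kif23), where the shares over all assigned regions were 2.19% and 1.37%.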

How the data were processed

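The data were 4 ATAC-seq peak lists, 1 per library and none pooled. The tools named in the submitters' processing notes were MACS2 2.2.7.1, Bowtie2 2.3.5, Picard 2.21.4 and SAMtools 1.9. Their settings, and which genome build was aligned to, are not stated there. In each list the authors gave a fold enrichment, a ratio of signal over background at the peak. Each peak also carries the authors' −log10 p and −log10 q, with no q above 0.0489, and the deposited score equals 10 times that −log10 q, cut to a whole number. These values were used only to rank peaks within a list. Such a list gives no depth, and no counting interval could be computed.

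Peaks off the assembled chromosomes were dropped. Summits were assigned to genes of a RefSeq table (GRCm38.p6), whose boundaries the summits matched as given above; region coordinates come from the lists, with the first base as 1. Promoter sequences are from RefSeq (GRCm38.p6) and cover 27 of the 35 genes. The members and lists were chosen with earlier results of these data known. Groups and replicate numbers follow the labels; the peak names within the lists use different replicate numbers. Named were regions found in 1 genotype only, the 10 separate regions with the largest difference, the 5 highest and 5 lowest boundaries, genes lacking a boundary peak in any library and the 5 richest in distal regions, with all 35 genes covered by role; the strongest distal regions of Ccnd3, Mki67, E2f2 and Ccne1 were added after their values were seen. No test was run over the gene list. The alternatives were other boundary widths, merging rules, list lengths, −log10 q in place of fold, and leaving out each library. The scripts (Python 3.11.15, pandas 2.3.3, NumPy 2.4.6) were tested on simulated data.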

Additional observations from a re-analysis of the deposited data

How the results depend on the processing

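The count of genes with a boundary peak in all 4 libraries ranged from 25 to 33 over the settings tried, against 30 as reported, and was 30 to 31 with a library left out. The count of KO-only regions, 2 as reported, was 1 with lists of equal length by fold (a region other than those 2), 0 in the upper 50% of each list and 1 with gaps of up to 500 bp merged. The count of WT-only regions, 3 as reported, was 0 with lists of equal length by −log10 q. Shares over all assigned regions are not given for these changed lists, so these genotype-only counts are not a result about these genes. Regions higher in both KO libraries were 8 of 94 as reported, 19 of 78 with lists of equal length and 5 of 94 by −log10 q. Regions lower in both were 10 of 94 as reported, 16 of 78 with lists of equal length and 11 of 94 by −log10 q. Their shares over all regions are given above. By −log10 q, Top2a, separate between genotypes by fold, had a difference of the opposite sign (-0.951), and some genes whose libraries overlapped by fold also changed sign, among them Ccnb2 (-2.35) and Ccnd2 (9.23); the cause of these shifts was not tested. With 1 library left out, where the lone library of a genotype has no replicate, WT-only regions ranged from 3 to 33 (33 without WT replicate 2, 7 without WT replicate 1) and KO-only regions from 2 to 13 (13 without KO replicate 1, 7 without WT replicate 1 or KO replicate 2). Regions higher in KO ranged from 9 to 52 (20 without KO replicate 1, 15 without KO replicate 2) and regions lower in KO from 10 to 69 (39 without KO replicate 2). Fewer libraries make both kinds of call easier to reach. Shares over all regions are not given for these settings, so these counts cannot be set against a background. The difference in median boundary percentile ranged from -3.00 to 2.24 and that in distal peaks from -23.5 to 7.50, so both changed sign. With the replicate number as a block, the differences were -0.382 points and -8.00 peaks, equal to the unpaired values by construction, and with 2 pairs no test of the pairing was run. Peak lists hold no depth, so an absent peak may be one that was not detectable.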
